A study of Mus musculus with 2 samples.

Results

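The genes described here are the 10 genes of the deposited tables that carry prostaglandins from their release to their breakdown, together with Annexin A1: Pla2g4a, Ptgs1, Ptgs2, Ptges, Ptgis, Ptgds, Ptger2, Ptger4, Hpgd and Anxa1. They were picked by name, for their place in the pathway, from the 26082 genes listed in each library. Earlier results of these data were known when they were chosen. RNA was measured in fibro-adipogenic progenitors (FAPs), mesenchymal cells of skeletal muscle that support regeneration and can turn into adipocytes. The primary mouse FAPs, of WT genotype by the labels, were sorted from hind limb muscle by flow cytometry and transfected with plasmids that overexpress TGFBR3 or, as the control, with the vector alone, and both cultures are labelled as under adipogenic differentiation. By the labels, both shared the induction medium, which held 20% FBS, 0.5 mM IBMX, dexamethasone at 0.25 μM and insulin at 10 μg/ml. The comparison asks which RNAs differ when TGFBR3 is overexpressed. The libraries, titled TGFBR3 OE (overexpression) and control, are called by these labels. There was 1 library per condition, so differences could not be set against the spread between replicates and p-values are not given. Neither how many animals the cells came from nor the share of cells that took up plasmid is given in the sources used here. In bulk RNA, fewer cells of a type and less RNA per cell cannot be told apart.

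Prostaglandins are short-lived lipid signals made on demand. The phospholipase encoded by Pla2g4a frees arachidonic acid from membranes, the cyclooxygenases encoded by Ptgs1 and Ptgs2 turn it into prostaglandin H2, and terminal synthases then fix which prostaglandin is made: E2 by Ptges, prostacyclin by Ptgis and D2 by Ptgds. Ptger2 and Ptger4 encode receptors for prostaglandin E2 that raise cAMP, and Hpgd encodes the dehydrogenase that starts the breakdown of the E and F prostaglandins. Anxa1 encodes Annexin A1, a calcium-dependent, membrane-binding protein named at its discovery as an inhibitor of phospholipase A2 that glucocorticoids induce. In the adipose lineage, prostacyclin and prostaglandin D2 derivatives are known to favor adipocyte formation, and prostaglandin E2 and F2α are known to restrain it. Dexamethasone is a glucocorticoid, a class known to raise Anxa1 and to hold down Ptgs2, and IBMX blocks the breakdown of cAMP.

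Tgfbr3, the overexpressed gene (ENSMUSG00000029287, chromosome 5 of mm10, 107106570 to 107289629, minus strand), checks the labels. Its FPKM, the count scaled by exon length and by library total, was 36.9 in the library labelled TGFBR3 OE and 35.1 in the library labelled control. The log2 ratio of (FPKM + 1) was 0.07, with a 95% counting interval of 0.04 to 0.10. The median gene was higher by 0.13 over the 10626 genes at an FPKM of 1 or more in both, and centred values are ratios from which this shift is subtracted. The centred value of Tgfbr3 was −0.06. Tgfbr3 was thus no higher than the median gene in the library labelled TGFBR3 OE, and directions below rest on the labels alone. Whether the plasmid holds a sequence that would be counted as mouse Tgfbr3 is not given in the sources used here, so its level may not show the transfection.

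Summed over genes, there were 62321027 counts in the library labelled TGFBR3 OE and 83779203 counts in the library labelled control. The added 1 in the ratio damps the change of low genes. Intervals are exact Clopper-Pearson intervals on each gene's share of counts, hold counting error alone, and bear on these libraries rather than on the conditions. The log2 ratio also followed the GC content of the exons, with a median of 0.45 in the lowest of 20 GC bins and −0.25 in the highest. For this reason the value after removal of this trend (without the GC trend) is given for each gene past 2-fold. Of 8 FAP markers, 7 had an FPKM of 1 or more in both, among them Pdgfra (30.5 and 32.6) and Ly6a (1013 and 706), while Lum was near 0 (0.27 and 0.03).

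Among the 10 genes, 9 had more than 3 counts in either library, and 8 had a mean FPKM of 1 or more. In the library labelled TGFBR3 OE, 4 genes were at least 2-fold higher: Pla2g4a, Ptgs2, Hpgd and Anxa1. Of all 21364 genes with more than 3 counts in either library, 1.73% were at least 2-fold higher. Because the 10 genes were chosen with earlier results known, the shares of all genes given here are description and not a test. For all 4 of these genes the counting interval lay wholly past 2-fold, as it did for 1.3% of all genes. None of the 9 detected genes was at least 2-fold lower, against 0.58% of all genes. After centring, the same 4 genes were at least 2-fold higher and none was lower, against 1.29% and 0.913% of all genes. Across all genes, 369 were higher and 124 lower, so that 74.8% of the 2-fold differences were higher, and after centring 275 were higher and 195 lower (58.5% higher). The median log2 ratio of the 9 detected genes was 0.33, and 0.21 after centring, beside a median of 0.06 over the 21364 genes. Without the GC trend, only Pla2g4a of the 4 stayed past 2-fold.

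**Figure D1:**
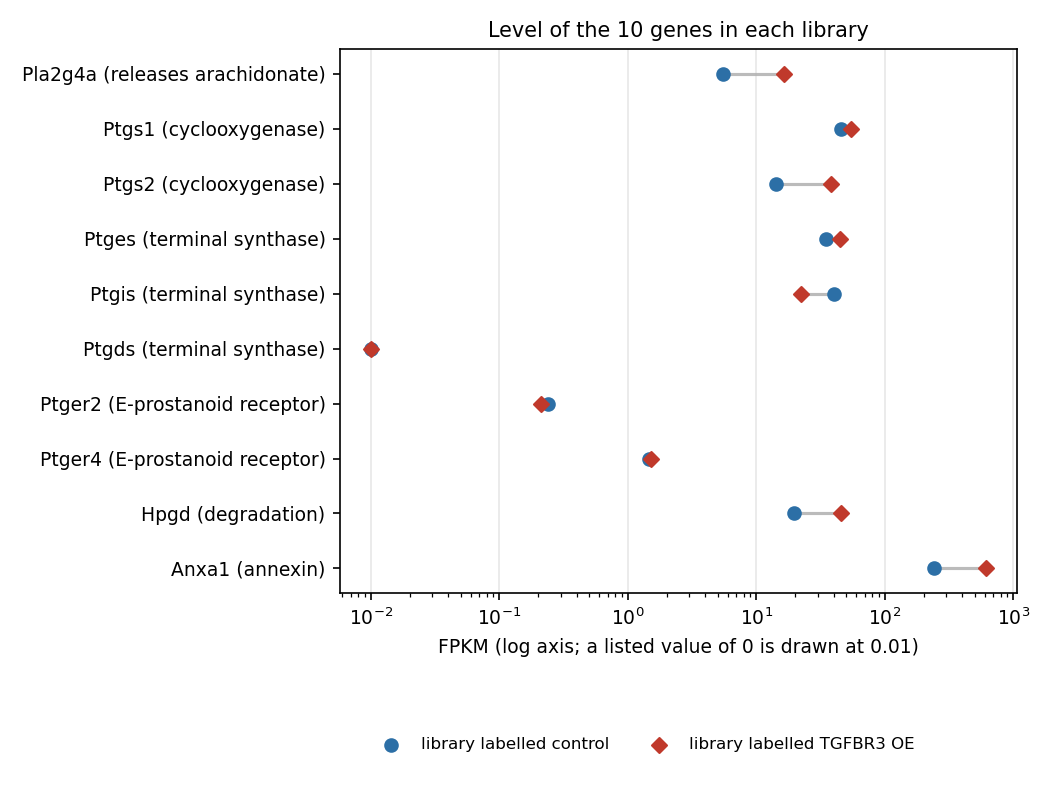
Each row is 1 of the 10 genes, with its role in brackets, and the horizontal log axis is FPKM. Blue circles are the library labelled control and red diamonds the library labelled TGFBR3 OE, joined by a gray line. Pla2g4a, Ptgs2, Hpgd and Anxa1 lie well to the right in the library labelled TGFBR3 OE, Ptgis lies to the left (22.4 against 40.5), and Ptgds is listed at 0 in both, drawn at 0.01.

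Upstream sequences of 5 of the genes are shown because 4 of them were the ones at least 2-fold higher, and because Ptgs1 is the cyclooxygenase that was not. Each run holds the 250 bases before the RefSeq transcription start in GRCm38.p6, read in the direction of the gene. The windows are chr1:150099781-150100030 on the plus strand for Ptgs2, chr1:149961291-149961540 on the minus strand for Pla2g4a, chr8:56294302-56294551 on the plus strand for Hpgd, chr19:20390672-20390921 on the minus strand for Anxa1 and chr2:36230176-36230425 on the plus strand for Ptgs1. Capitals mark matches to 1 of 8 short motifs searched on both strands.
Ptgs2: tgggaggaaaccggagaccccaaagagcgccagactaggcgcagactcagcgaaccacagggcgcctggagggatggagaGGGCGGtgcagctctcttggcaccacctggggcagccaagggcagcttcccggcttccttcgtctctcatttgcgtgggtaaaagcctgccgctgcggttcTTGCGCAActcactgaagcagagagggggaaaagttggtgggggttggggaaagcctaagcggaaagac
Pla2g4a: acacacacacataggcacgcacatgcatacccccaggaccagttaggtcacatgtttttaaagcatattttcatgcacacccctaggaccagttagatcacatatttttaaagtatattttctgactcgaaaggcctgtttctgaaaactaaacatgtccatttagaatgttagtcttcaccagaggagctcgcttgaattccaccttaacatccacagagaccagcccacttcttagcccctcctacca
Hpgd: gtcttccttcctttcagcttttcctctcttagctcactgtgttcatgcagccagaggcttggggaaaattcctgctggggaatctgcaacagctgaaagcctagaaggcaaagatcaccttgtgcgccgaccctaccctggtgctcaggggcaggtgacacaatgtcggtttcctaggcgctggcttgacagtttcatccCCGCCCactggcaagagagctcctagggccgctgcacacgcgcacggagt
Anxa1: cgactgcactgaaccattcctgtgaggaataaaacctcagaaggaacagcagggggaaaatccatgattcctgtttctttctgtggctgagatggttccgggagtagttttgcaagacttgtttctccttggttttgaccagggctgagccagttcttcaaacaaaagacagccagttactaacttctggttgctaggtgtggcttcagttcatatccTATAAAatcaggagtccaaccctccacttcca
Ptgs1: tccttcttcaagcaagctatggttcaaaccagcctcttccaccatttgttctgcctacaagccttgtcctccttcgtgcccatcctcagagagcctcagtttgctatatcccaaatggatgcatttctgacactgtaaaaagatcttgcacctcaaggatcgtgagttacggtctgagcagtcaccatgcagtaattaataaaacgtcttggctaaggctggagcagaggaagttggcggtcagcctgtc

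The search covered 300 bases, from 250 before to 50 after the start, in 27025 RefSeq windows, of which 9 belong to genes of the set. The motifs were the TATA box (TATAAA, in 14.2% of all windows), the CCAAT box (CCAAT, 37.9%), the GC box (GGGCGG, 35.9%), the cAMP response element core (TGACGT, 7.645%), the E-box (CACGTG, 7.24%), a C/EBP site (TTGCGCAA, 0.185%), an AP-1 site (TGANTCA, 7.93%) and a STAT site (TTCNNNGAA, 8.47%). Ptgs2 held matches of 4 kinds. A GC box lay 170 to 165 bases before its start and a C/EBP match 69 to 62 bases before it, and a cAMP response element core on the minus strand, at bases 13 to 18 after the start, overlapped an E-box at bases 17 to 22. The 30 bases that hold this pair and those that hold a TATA match of Hpgd at bases 5 to 10 follow, from chr1:150100038-150100067 and chr8:56294552-56294581, both on the plus strand.
Ptgs2 after the start: ccactACGTCACGTGgagtccgctttacag
Hpgd after the start: gggcTATAAAagctgctgcggcgtccagac

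In GENCODE M21 Hpgd starts at base 56294585 of chromosome 8, so that its TATA match lies before the start in that annotation. Anxa1 held a TATA box 32 to 27 bases before its RefSeq start, and Hpgd a GC box on the minus strand 50 to 45 bases before its own. In GENCODE M21 Anxa1, on the minus strand, starts at base 20390944 of chromosome 19, so that its TATA match lies after the start in that annotation. No match was found in the windows of Pla2g4a and Ptgs1. No motif of the 8 was thus held by all 4 genes that were at least 2-fold higher. A match is a description of letters and says nothing about what bound there.

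Pla2g4a, which encodes the cytosolic phospholipase that frees arachidonic acid (ENSMUSG00000056220, chromosome 1 of mm10, 149829618 to 149961290, minus strand), had an FPKM of 16.5 in the library labelled TGFBR3 OE and of 5.55 in the other, from 7168 and 3279 counts. The FPKM differed 2.98-fold, and the log2 ratio of (FPKM + 1) was the largest of the 10 genes, at 1.42 (95% interval 1.37 to 1.47). It stood 152nd from the top of the 11213 genes whose mean FPKM was 1 or more. Without the GC trend the value was 1.08, still past 2-fold. The gene shares chromosome 1 with Ptgs2, which lies on the opposite strand.

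Ptgs1 and Ptgs2, the cyclooxygenases, differed in their ratios. Ptgs1, the form most tissues make at a steady level (ENSMUSG00000047250, chromosome 2, 36230426 to 36252272), had FPKM values of 54.7 and 45.3 from 14406 and 16239 counts, a log2 ratio of 0.27 (95% interval 0.24 to 0.30) that was 0.14 after centring. Ptgs2, the form that cytokines and growth factors induce (ENSMUSG00000032487, chromosome 1, 150100031 to 150108227, plus strand), had FPKM values of 37.8 and 14.1 from 11752 and 5974 counts. Its log2 ratio was 1.36 (95% interval 1.32 to 1.40), 167th from the top, and the FPKM differed 2.68-fold. Without the GC trend it was 0.91, short of 2-fold. In both libraries Ptgs1 stood above Ptgs2 per length of transcript.

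The ratio of Ptgs2 to Ptgs1 within a library does not depend on how the libraries are scaled to each other. It can still carry the GC trend, as the exons of Ptgs2 hold 40.1% GC and those of Ptgs1 51.1%. Without the GC trend, the log2 ratio between libraries was 0.91 for Ptgs2 and 0.19 for Ptgs1. By FPKM the ratio of Ptgs2 to Ptgs1 was 0.692 in the library labelled TGFBR3 OE and 0.312 in the library labelled control. Ptgs2 thus made up 40.9% of the summed cyclooxygenase FPKM of 92.5 in the first and 23.8% of 59.4 in the second. From the counts, the ratio was 2.22-fold higher in the library labelled TGFBR3 OE (95% counting interval 2.13 to 2.30). The pairs compared within libraries here and below, 5 in all, were chosen after the values were seen, so they describe these libraries only. No pair was corrected for the GC trend. The ratio of Pla2g4a to Ptgs1, release against the steady cyclooxygenase, was 0.302 against 0.123, a 2.46-fold difference by counts (95% counting interval 2.35 to 2.58).

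The terminal synthases lay on both sides of 0, and none passed 2-fold. Ptges, the inducible prostaglandin E synthase (ENSMUSG00000050737, chromosome 2, 30889471 to 30929863, minus strand), had FPKM values of 44.5 and 35.1 from 11861 and 12736 counts, a log2 ratio of 0.33 (95% interval 0.30 to 0.37) and a centred value of 0.21. Ptgis, the prostacyclin synthase (ENSMUSG00000017969, chromosome 2, 167191805 to 167240604, minus strand), was lower, with FPKM values of 22.4 and 40.5 from 3907 and 9598 counts. Its log2 ratio was −0.82 (95% interval −0.88 to −0.77) and −0.95 after centring, and the FPKM was 1.80-fold lower. Among the 11213 genes whose mean FPKM was 1 or more, it stood 211th from the bottom. The FPKM of Ptges was 0.866 times that of Ptgis in the library labelled control and 1.98 times in the library labelled TGFBR3 OE. The order of these synthases was thus reversed between the libraries, and the ratio differed 2.29-fold by counts (95% counting interval 2.19 to 2.39).

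Ptgds, a prostaglandin D synthase (ENSMUSG00000015090, chromosome 2, 25466709 to 25470046, minus strand), had 0 counts in both libraries. Its floor of 3 counts corresponds to an FPKM of 0.0268 in the library labelled TGFBR3 OE and 0.0197 in the other, so levels below these were not detectable. Hpgds, which encodes the other prostaglandin D synthase and was looked up after the values were seen, also had 0 counts in both. RNA for making prostaglandin D2 from prostaglandin H2 by either enzyme was therefore not detected at this depth.

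**Figure D2:**
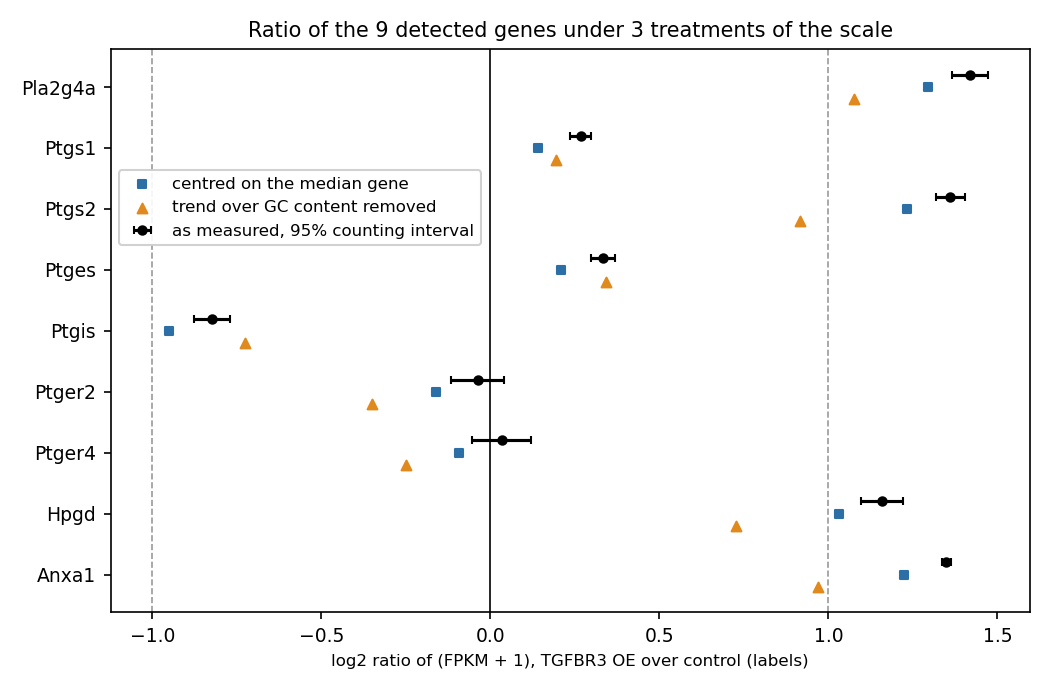
Each row is 1 of the 9 detected genes, and the horizontal axis is the log2 ratio of (FPKM + 1), TGFBR3 OE over control by the labels. Black points with bars are the measured ratio and its 95% counting interval, blue squares the centred value, orange triangles the value without the GC trend, and dashed lines mark 2-fold. Pla2g4a is past 2-fold in all 3 versions, whereas Ptgs2 (0.91), Hpgd (0.73) and Anxa1 (0.97) fall short of it without the GC trend.

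The receptors for prostaglandin E2 were scarce. Ptger4 (ENSMUSG00000039942, chromosome 15, 5206661 to 5244187, minus strand) had FPKM values of 1.51 and 1.45, from 679 and 891 counts, and its log2 ratio of 0.03 (95% interval −0.06 to 0.12) became −0.09 after centring. Ptger2 (ENSMUSG00000037759, chromosome 14, 44988195 to 45003820, plus strand) had 74 and 117 counts, an FPKM of 0.21 against 0.24 and a log2 ratio of −0.04 (95% interval −0.12 to 0.04). Both intervals include 0, so no difference could be detected with these counts. Without the added 1, the ratio of Ptger2 was −0.19 (95% interval −0.66 to 0.22). Opposite-strand genes overlap the exons of both. For Ptger4 the pseudogene Gm15937 covers 1015 bases and Ttc33 another 82, and 15.2% of its 31-base words also occur in other genes. Because the strand setting of the counting is not stated, reads of these genes cannot be told apart.

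Hpgd, which encodes 15-hydroxyprostaglandin dehydrogenase (ENSMUSG00000031613, chromosome 8, 56294585 to 56321043, plus strand), was, like Pla2g4a and Ptgs2, at least 2-fold higher. From 5182 and 3074 counts, its FPKM came to 45.4 in the library labelled TGFBR3 OE and 19.8 in the other. The log2 ratio stood at 1.16 (95% interval 1.10 to 1.22) and at 1.03 after centring, and the FPKM differed 2.30-fold. It was 0.73 without the GC trend. The ratio of Ptgs2 to Hpgd, induced cyclooxygenase to degrading enzyme, was 0.833 against 0.714, a difference of 1.17-fold by counts (95% counting interval 1.11 to 1.23), far smaller than that of either gene alone.

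Anxa1 (ENSMUSG00000024659, chromosome 19, 20373428 to 20390944, minus strand) was the most abundant of the 10 genes in both libraries. At 121595 and 64841 counts, the FPKM came to 616 in the library labelled TGFBR3 OE and 241 in the library labelled control. By level it stood 54th of all genes in the first library and 184th in the second. The log2 ratio was 1.35 (95% interval 1.34 to 1.36) and 1.22 after centring, and the FPKM differed 2.55-fold. Without the GC trend it was 0.97, just short of 2-fold. The study itself drew Ptgs2 and Anxa1 in a graph of genes and terms made from these same libraries, so their direction here is not independent evidence.

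**Figure D3:**
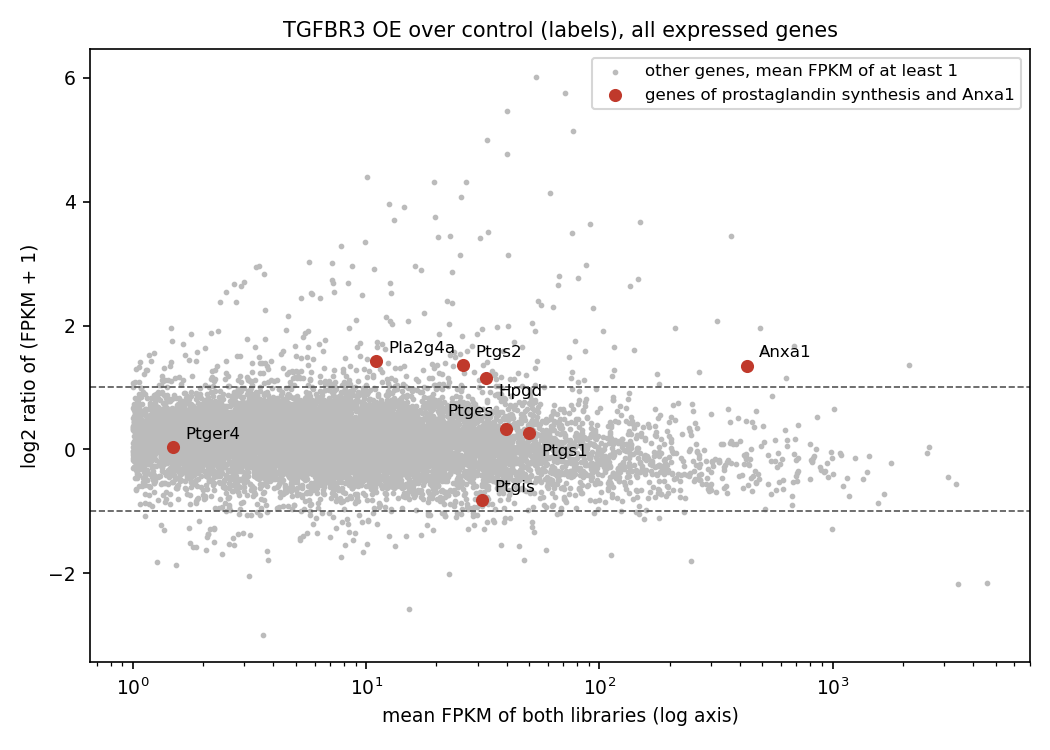
Each point is 1 of the 11213 genes whose mean FPKM was 1 or more, with the mean FPKM of both libraries on the horizontal log axis and the log2 ratio of (FPKM + 1), by the labels, on the vertical axis. Red points are the 8 genes of the set that reach this level, and dashed lines mark 2-fold. Pla2g4a, Ptgs2, Hpgd and Anxa1 lie above the upper line, Ptgis lies near the lower edge of the gray points, and Ptges, Ptgs1 and Ptger4 lie among them.

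The order of levels per transcript length can be read within each library. In the library labelled TGFBR3 OE it ran from Anxa1 through Ptgs1, Hpgd, Ptges, Ptgs2, Ptgis, Pla2g4a, Ptger4 and Ptger2 to Ptgds. In the library labelled control Ptgis took the third place, ahead of Ptges, Hpgd and Ptgs2. Anxa1 and Ptgs1 led in both libraries, and Pla2g4a was in both the lowest of the enzymes above the floor. With 1 library each, whether neighbors in these orders differ beyond the spread between cultures could not be examined.

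Base composition was a property that the 4 higher genes shared and that the choice of genes did not use. The exons of these 4 genes had a GC content of 40.1% in Ptgs2, 40.5% in Hpgd, 42.7% in Anxa1 and 43.4% in Pla2g4a. All were below the median of 50.0% over the genes whose mean FPKM was 1 or more. Ptgs1, Ptges and Ptgis had 51.1%, 53.5% and 57.4%. The E-prostanoid receptors, with 45.02% in Ptger2 and 45.8% in Ptger4, were also below the median, and their log2 ratios were −0.04 and 0.03. Low GC content and a higher ratio went together across all genes of these libraries, and the values without that trend stand beside each of the 4 genes above. The 4 higher genes share at most 0.219% of their 31-base words with other genes and none of their exons overlaps a gene on the opposite strand, whereas Ptgs1 and Ptgis each have such an overlap, of 148 and 156 bases.

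Around the 10 genes, 9 lists of the wider pathway were compiled, and 91 of their further genes had more than 3 counts in either library. Of these, 1 was at least 2-fold higher and 1 lower, together 2.20%, beside 1.73% and 0.58% of all genes. These calls, and those in the lists below, use the added 1. By the plain ratio, 12 of these further genes were past 2-fold in either direction, beside 2546 higher and 852 lower of all genes. That ratio was called only for genes with more than 3 counts in both libraries. How many genes these are is not given here, so the plain counts do not give shares. No list is called apart from these numbers. The 2-fold differences lay in the list of arachidonate release, where 2 genes were higher (Pla2g4a and Pla2g4c) and 1 was lower (Mgll) of 17, with a median log2 ratio of −0.01. Pla2g4c, a further cytosolic phospholipase A2, had 568 counts against 42, an FPKM of 2.23 against 0.12, and a log2 ratio of 1.53 (95% interval 1.45 to 1.59). Without the added 1 that ratio was 4.22, and without the GC trend it was 1.18. Mgll, the lipase that breaks down the endocannabinoid 2-arachidonoylglycerol to arachidonic acid and glycerol, had 130 counts against 891. Its FPKM was 0.37 against 1.89, and its log2 ratio was −1.08 (95% interval −1.16 to −0.98), or −1.01 without the GC trend. With the added 1 the interval reaches short of 2-fold. Without the added 1 the ratio was −2.35 (95% interval −2.61 to −2.06), wholly past 2-fold. Pla2g6 (0.33) and Pla2g12a (−0.31), which encode other phospholipases A2, were short of 2-fold.

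Enzymes that put arachidonic acid back into membranes work against Pla2g4a. None of 8 was past 2-fold with the added 1, and their median log2 ratio of 0.14 turned to −0.08 without the GC trend and −0.04 without the exon length trend. The largest values were those of Acsl5 (0.54) and Acsl4 (0.51), which activate the free acid with coenzyme A, and Acsl4 was at 0.07 without the GC trend. Lpcat3, which re-acylates phospholipids with arachidonic acid, was at −0.23, and Lpcat2 had 76 and 30 counts and a value of 0.29.

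Among 12 detected prostanoid synthases, Ptgs2 was the only gene past 2-fold, and the median log2 ratio was 0.26. Ptges3, a cochaperone also named for prostaglandin E synthase activity, had an FPKM of 33.1 against 19.1 and a log2 ratio of 0.76, which was 0.38 without the GC trend. The aldo-keto reductase genes Akr1b3 and Akr1b8, of a family known for prostaglandin F synthase activity, had log2 ratios of 0.69 and 0.47. Fam213b, which encodes another prostaglandin F synthase, had an FPKM of 12.58 against 18.01 and a log2 ratio of −0.49. Values of the synthases thus spread to both sides of 0, with Ptgis the lowest.

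None of the 8 detected genes in the list of prostanoid receptors was past 2-fold with the added 1, and none lay above the median gene. The list includes Ptgfrn, a gene for a regulator of a receptor. The added 1 by itself holds genes near 0 below the median gene. Among these was Ptger3, another E-prostanoid receptor gene, with 13 counts against 0 and a log2 ratio of 0.04. Of the 8 values, 2 were above 0 and 6 below. Their median log2 ratio was −0.06. The thromboxane receptor gene Tbxa2r had an FPKM of 2.29 against 4.32 and a log2 ratio of −0.69 (95% interval −0.83 to −0.55), and Ptger1 had 107 and 269 counts and a value of −0.26. Ptgfrn, whose product negatively regulates the prostaglandin F2α receptor, had a value of −0.12, and the receptor gene Ptgfr itself of −0.09. The prostacyclin receptor gene Ptgir, looked up after the values were seen because its ligand is made by Ptgis, had FPKM values of 8.51 and 8.54.

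Downstream of Hpgd and in the other branch of arachidonic acid, no further gene reached 2-fold with the added 1. Among 8 genes of prostaglandin transport and degradation, the median log2 ratio was 0.20, which turned to −0.06 without the GC trend. After Hpgd the largest values were those of the ω-hydroxylase gene Cyp4f16 (0.37) and of Ptgr2 (0.30), a reductase of 15-keto-prostaglandins that was at −0.13 without the GC trend. Cyp4f13 (0.23) and Zadh2 (0.17) followed. Of 11 lipoxygenase and leukotriene genes, the median was 0.04, and −0.09 after centring. Ephx1, an abundant epoxide hydrolase, had FPKM values of 459 and 324 (0.50), and Ephx2 was at 0.21, whereas the leukotriene genes Ltc4s (−0.42) and Alox5 (−0.16) had negative values.

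**Figure D4:**
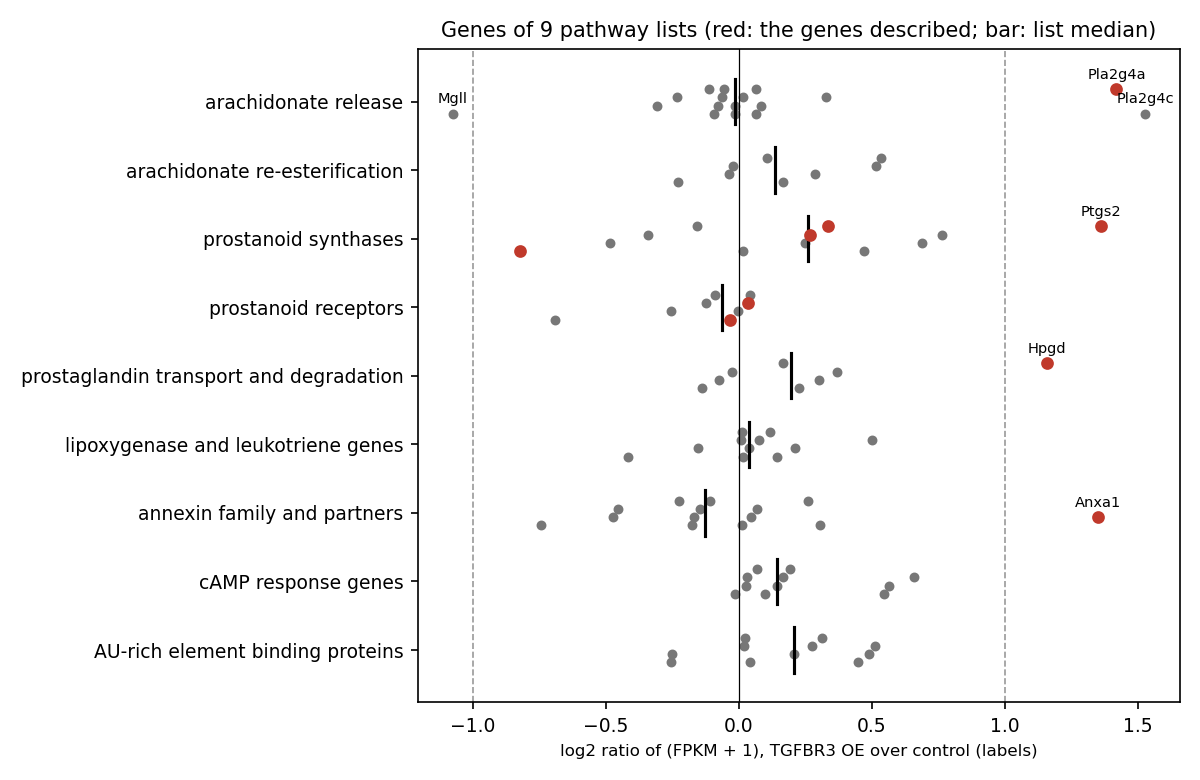
Each row is 1 of 9 pathway lists and each point a gene with more than 3 counts in either library, placed by its log2 ratio of (FPKM + 1), TGFBR3 OE over control by the labels. Red points are genes of the set of 10, black bars the list medians, which run from −0.13 to 0.26, and dashed lines 2-fold. Beyond the dashed lines lie Pla2g4a, Pla2g4c, Ptgs2, Hpgd and Anxa1 on the right and Mgll on the left.

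Annexins bind membranes with calcium, several of them as complexes with S100 proteins. Among 14 detected annexins and partners, Anxa1 alone was past 2-fold, and the median log2 ratio was −0.13. Anxa2, the close relative of Anxa1, had an FPKM of 221 against 307 and a log2 ratio of −0.47 (95% interval −0.49 to −0.46). Its partner gene S100a10 had a value of −0.46, with FPKM values of 99.4 and 137, and S100a6 had one of −0.75, with 502 and 842. Anxa4 was at 0.31. The ratio of Anxa1 to Anxa2 was 2.79 in the library labelled TGFBR3 OE and 0.785 in the library labelled control, a 3.55-fold difference by counts (95% counting interval 3.50 to 3.60). Anxa1 was thus the most abundant annexin in the first library, and stood below Anxa5 (377) and Anxa2 by FPKM in the second. Fpr1, which encodes a receptor for Annexin A1, had only 8 and 4 counts. The other listed formyl peptide receptor genes, Fpr2 and Fpr3, were not analysed here, so these counts do not cover that receptor family.

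**Figure D5:**
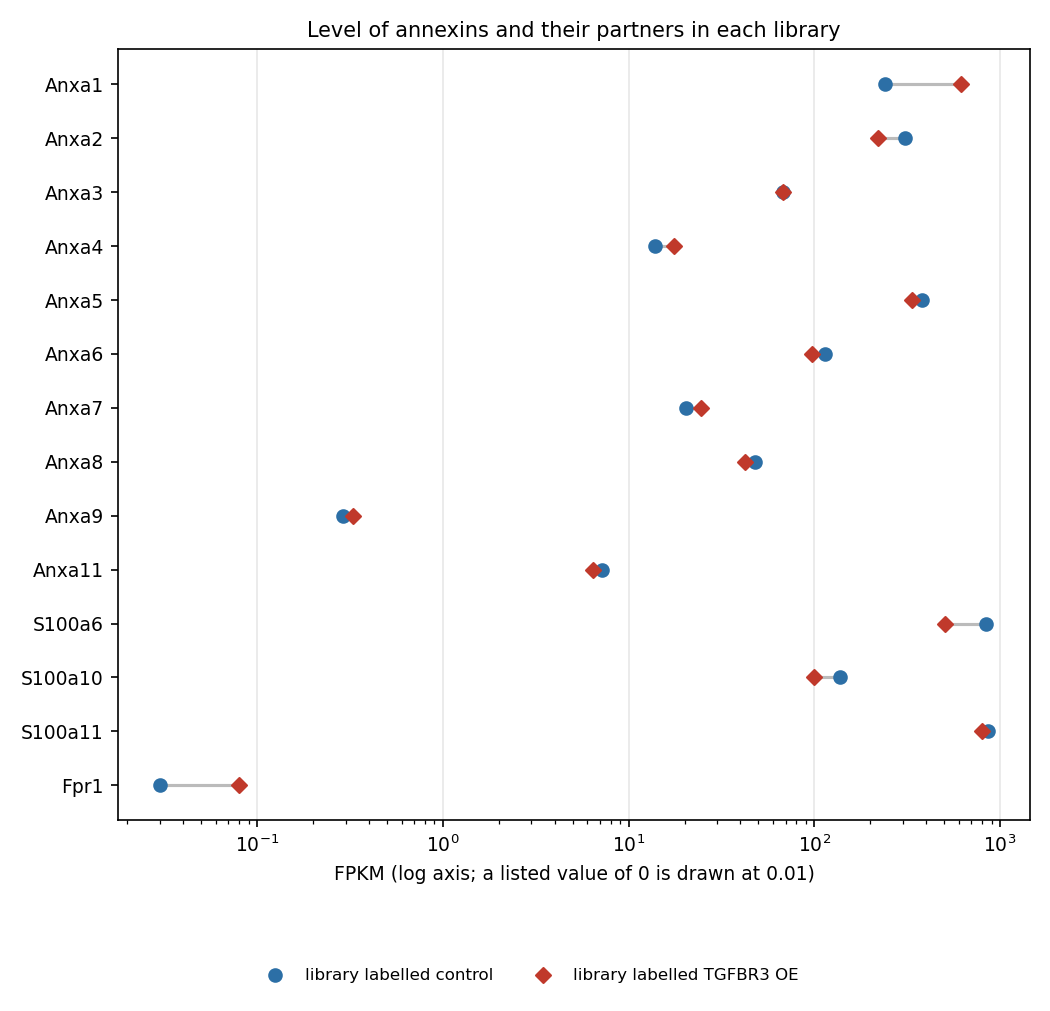
Each row is an annexin, S100 or formyl peptide receptor gene with more than 3 counts in either library, and the horizontal log axis is FPKM. Blue circles are the library labelled control and red diamonds the library labelled TGFBR3 OE, joined by a gray line. Anxa1 goes from 241 to 616 while Anxa2, S100a6 and S100a10 lie to the left in the library labelled TGFBR3 OE.

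Signaling through Ptger2 and Ptger4 raises cAMP, as the IBMX in the medium of both cultures also does. Of 11 detected cAMP response genes, none was past 2-fold with the added 1, and 10 values were above 0 and 1 below. Set against the median gene, 6 were higher and 5 lower, and the centred median was 0.02. The median log2 ratio of 0.14 turned to −0.09 without the exon length trend. The largest values were those of the nuclear receptor gene Nr4a1 (0.66), of Crem (0.56), of the phosphodiesterase gene Pde4b (0.55) and of Nr4a2 (0.19). All 4 were low, with FPKM values no higher than 2.69, and without the added 1 the value of Pde4b was 1.47. Messages such as that of Ptgs2 are also governed by proteins that bind AU-rich elements. None of 11 such genes was past 2-fold, and their median was 0.21, which turned to −0.13 without the GC trend and −0.02 without the exon length trend. Here Zfp36l1 (0.51), Tial1 (0.49), Celf1 (0.45) and Tia1 (0.31) had the largest values, and without the GC trend Tial1 was at 0.04 and Tia1 at −0.13.

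Other cell types that make prostaglandins or Annexin A1 were followed by marker lists. The 9 macrophage markers summed to an FPKM of 0.91 and 0.54, with 244 and 245 counts, and Adgre1, Tyrobp and Fcer1g were at 0 in both libraries. Of 7 mast cell markers only Kit and Hdc were analysed here, with a summed FPKM of 0.18 and 0.02. The 4 neutrophil markers analysed summed to 6.02 and 4.3, nearly all of it S100a8 (5.81 and 4.15), while Csf3r was at 0. Sums of FPKM were 2.46 and 2.06 for 7 endothelial markers, 1.6 and 1.3 for 4 myogenic markers, and 10.6 in both libraries for 6 pericyte and smooth muscle markers. FPKM of unlike genes does not give a share of cells, so these sums set no bound on the part of other cells. Antibodies to CD31 and CD45, which mark endothelial and blood cells, are listed for the study beside those to Sca-1 and CD140a. A sort that excludes cells with CD31 or CD45 would remove macrophages, mast cells, neutrophils and endothelial cells, but the paper does not describe the gates used. The part of other cells in the differences of Ptgs2, Hpgd, Pla2g4a and Anxa1 was not tested. Of the 8 FAP markers, 3 had a positive log2 ratio, Ly6a (0.52), Lum (0.30) and Dcn (0.14), and 5 a negative one, Thy1 (−0.04), Pdgfra (−0.09), Cd34 (−0.30), Col1a1 (−0.89) and Col3a1 (−1.05), the last at least 2-fold lower. Without the GC trend Col3a1 was at −1.37.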

How the data were processed

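The authors deposited, for each of 2 libraries, the raw count of every gene and its FPKM, which scales that count by gene length and by a library total and is rounded to 2 decimals. The methods describe trimmed reads mapped to mm10 with STAR and counted with FeatureCounts, whereas the submitters' processing notes list cutadapt 1.9, HISAT2 2.2.1, StringTie 2.1.6, DESeq2 and edgeR. The annotation release, the strand setting of the counting and the use of molecular identifiers are not given in the sources used here. Libraries were grouped by their titles. FPKM was compared as the log2 ratio of (FPKM + 1), with a threshold of 1 or −1 (2-fold), over genes with more than 3 counts in either library. Deposited counts gave the exact Clopper-Pearson intervals at the 95% level and the floor of 3 counts, and the intervals of the within-library ratios are log-normal. A gene with few counts, such as Ptger2, has a wide interval on the plain scale and Anxa1 a narrow one. With 1 library per condition, no count model was run. Exon length, GC content, overlaps and shared 31-base words came from GENCODE M21 on mm10, which holds 99.7% of the gene identifiers, and promoters came from RefSeq (GRCm38.p6), where 9 of the 10 genes matched. Trends were removed as the median log2 ratio in 20 bins. The genes named were the 10 genes, Tgfbr3, up to 4 further genes of each of 9 pathway lists by the size of their ratio, and markers. The genes and lists, drawn from general knowledge, were chosen with earlier results of these data known. Of 167 listed genes, 20 were not analysed here. Alternatives were other pseudocounts, CPM, centring, rescaling without the 50 highest genes, a filter on FPKM, other thresholds and removal of the trends. Calculations used Python 3.11.15 with numpy 2.4.6, pandas 2.3.3 and scipy 1.17.1 and were tested on simulated data.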

Additional observations from a re-analysis of the deposited data

How the results depend on the processing

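The number of genes at least 2-fold higher, 4 of the 10, was 1 after removal of the GC trend and 0 at a 4-fold threshold, and stayed at 4 under the other alternatives run. The number at least 2-fold lower, 0, was 1 at a 1.5-fold threshold (Ptgis). The median log2 ratio of 0.33 was 0.21 after centring, 0.23 after removal of the exon length trend and 0.75 with a filter on a mean FPKM of at least 1, which leaves out Ptger2. The 2 further pathway genes past 2-fold became 4 with a pseudocount of 0.1, 12 with one of 0.01 and 12 by the plain ratio, 7 at 1.5-fold and 0 at 4-fold. Across all genes, 369 higher and 124 lower became 1898 and 678 with a pseudocount of 0.1, 4039 and 2097 with one of 0.01, 2546 and 852 by the plain ratio, 638 and 197 by CPM, 1685 and 608 at 1.5-fold and 77 and 6 at 4-fold, while 195 were lower after centring. A smaller pseudocount or threshold admits more low or small differences by construction, and for the trends the cause was not tested. Over these alternatives, the log2 ratio ranged from 1.08 to 1.57 for Pla2g4a, 0.91 to 1.42 for Ptgs2, 0.73 to 1.23 for Hpgd, 0.97 to 1.35 for Anxa1 and −0.95 to −0.73 for Ptgis, and of the 9 detected genes Ptger4 alone changed sign (−0.25 to 0.06). Of the other genes named by the rule, Tgfbr3, Ptgr2 and Tia1 turned, and of the 9 list medians 5 turned under centring or removal of a trend, as given with each. No paired analysis was possible because each condition has 1 library, and for the same reason no library could be left out. Depth limits what can be said of Ptgds and Ptger2. For Ptger4, with 679 and 891 counts, the sign turned under centring and under removal of either trend.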
